A study of Mus musculus with 1279 samples.

Results

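Cardiac fibroblasts of adult mice had been caught on plates in different ways, and 329 cells carried the label cluster 2 or cluster 4 and were caught from Acta2GFP or C57BL6 mice. Of the 1279 heart cells in the table, 78 were Acta2GFP cells of these clusters (38 of cluster 2 and 40 of cluster 4, all on plate heart_683s), and 251 were C57BL6 cells of these clusters. The C57BL6 cells lay on plate heart_203s (65 of cluster 2 and 69 of cluster 4) and plate heart_316s (58 and 58), with 1 more cluster 2 cell on plate heart_204s. That cell entered only the alternative in which the C57BL6 plates were pooled. Members were chosen by the strain, plate and cluster labels alone, and plates heart_203s and heart_316s were kept apart except in that alternative.

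Acta2GFP mice carry a transgene in which regulatory sequence of Acta2 drives green fluorescent protein, and their cells were sorted on that fluorescence. C57BL6 mice carried no reporter, and their cells were sorted with antibodies to PDGFRα or PDGFRβ. All mice were male, 10 to 20 weeks old and on a C57Bl6/J background, and cells positive for CD31, the endothelial surface protein encoded by Pecam1, were excluded. Hearts were digested with a dissociation kit and collagenase IV, and elastase was added for Acta2GFP hearts. Strain, sort, dissociation and plate therefore changed together and cannot be told apart. The labels do not say whether plates hold cells of different animals, so each plate counts as 1 sample and no test between groups was possible. A few cells of these clusters from PdgfrbGFP mice (49 and 53 cells) and Cspg4dsRED mice (8 and 13 cells), each sorted on its own reporter, are given beside the comparison.

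Acta2 encodes alpha smooth muscle actin, the contractile actin of vascular smooth muscle cells and the classical marker of myofibroblasts in injured tissue. Fibroblasts of the healthy heart make collagens and other matrix under control of PDGF and TGF-beta signals, and are usually described as low in this actin. Vascular mural cells, the smooth muscle cells and pericytes of the vessel wall, use Acta2, Tagln and Myh11 for contraction. Transcription of many contractile genes is driven by serum response factor and its cofactor myocardin, which act through the CArG box, a short element with an A/T-rich middle.

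Stretches of the Acta2 gene are shown because the reporter used for sorting is built on this gene's regulatory sequence. RefSeq sequence of GRCm38.p6 holds 2 CArG-like matches within the 250 bases before the RefSeq start of Acta2, which is on the minus strand of chromosome 19. Capitals mark the match, which begins with CC, ends with GG and has 1 base other than A or T among the 6 bases between.
Acta2 distal match, chr19:34255438-34255467: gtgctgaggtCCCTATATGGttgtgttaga
Acta2 proximal match, chr19:34255388-34255417: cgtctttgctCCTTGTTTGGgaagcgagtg
The distal match lies 84 to 75 bases before the RefSeq start and the proximal match 34 to 25 bases before it. The gene's Ensembl entry (chr19:34241090-34255590) begins upstream of the RefSeq start, so both matches fall inside the span of that entry. A strict CArG box was in 1.47% of the 32851 windows of the same length in the RefSeq table, a CArG-like match in 8.59%, and 2 or more CArG-like matches in 0.670%, read on both strands. The Acta2 window held no strict box, and the windows of Mylk and Synpo2 held neither kind. Tagln and Myh11, the remaining contractile genes called below, were not analysed here. Whether these stretches are in the transgene was not examined.

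Each cell was sequenced by Smart-seq2, a full-length method without molecular identifiers, and the table holds raw read counts per gene. Counts were summed over the cells of each plate and cluster, divided by the summed counts of all endogenous genes and scaled to 1000000 counts (CPM). Sums held between 15323771 and 26888270 counts in the Acta2GFP and C57BL6 groups, and single cells had medians between 219148 and 385274 counts. A difference is log2(CPM + 1) of Acta2GFP minus that of a C57BL6 plate, which understates changes of low genes. Of 46517 genes, 11336 averaged at least 5 CPM over the 6 sums and were compared. A gene was called higher or lower where the difference was at least 1 in the same direction against both C57BL6 plates. This is a rule of size and not a test, and intervals quoted below cover counting error only.

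Acta2 is the gene on which the reporter was built, and it was higher on the Acta2GFP plate in both clusters. In cluster 2 its level was 254 CPM on the Acta2GFP plate (95% exact Poisson interval 246 to 261), 26.8 CPM on plate heart_203s (24.7 to 28.98) and 27.5 CPM on plate heart_316s (24.9 to 30.2). In cluster 4 the levels were 394 CPM (384 to 404), 61.6 CPM (58.6 to 64.6) and 61.3 CPM (57.8 to 64.96). The Acta2GFP sums were thus the highest of the 3 in both clusters, and the C57BL6 plates lay close to each other. Differences were 3.20 and 3.16 against plates heart_203s and heart_316s in cluster 2, and 2.66 against either plate in cluster 4. PdgfrbGFP cells had 81.4 CPM of Acta2 in cluster 2 and 107.2 CPM in cluster 4, and Cspg4dsRED cells 147.4 and 366 CPM. The cells were sorted on a reporter of this gene, so its level is part of how they were chosen and is given as a description.

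The separation was also present cell by cell. All 38 cluster 2 and all 40 cluster 4 cells of the Acta2GFP plate had Acta2 counts, with the lowest cell at 27.2 CPM, the median at 221 CPM and the highest at 1255 CPM in cluster 2, and 50.01, 308 and 3018 CPM in cluster 4. On the C57BL6 plates the median cell had 0 counts of Acta2 in both clusters, while the highest cell reached 453 CPM (heart_203s) and 1165 CPM (heart_316s) in cluster 2, and 1246 and 1908 CPM in cluster 4. The groups of cells therefore overlapped, through a few C57BL6 cells at high levels. Counts were found in 49.2% (heart_203s) and 34.5% (heart_316s) of C57BL6 cells in cluster 2 and in 46.4% and 41.4% in cluster 4. After every cell was thinned to 50000 counts, these shares became 97.4% for Acta2GFP against 20.0% and 13.8% in cluster 2, and 100% against 17.4% and 15.5% in cluster 4.

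A limit of 100 CPM, chosen after the values were seen, sets the upper range of Acta2 apart. It was reached by 34 of 38 Acta2GFP cells in cluster 2, against 4 of 65 cells on plate heart_203s and 2 of 58 on plate heart_316s. In cluster 4 it was reached by 34 of 40 cells, against 7 of 69 and 5 of 58. The same limit was reached by 4 of 49 and 7 of 53 PdgfrbGFP cells and by 5 of 8 and 9 of 13 Cspg4dsRED cells. Most Acta2GFP fibroblasts were thus at a level that few antibody-sorted fibroblasts of the same cluster reached, and such cells were present on every plate.

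**Figure D1:**
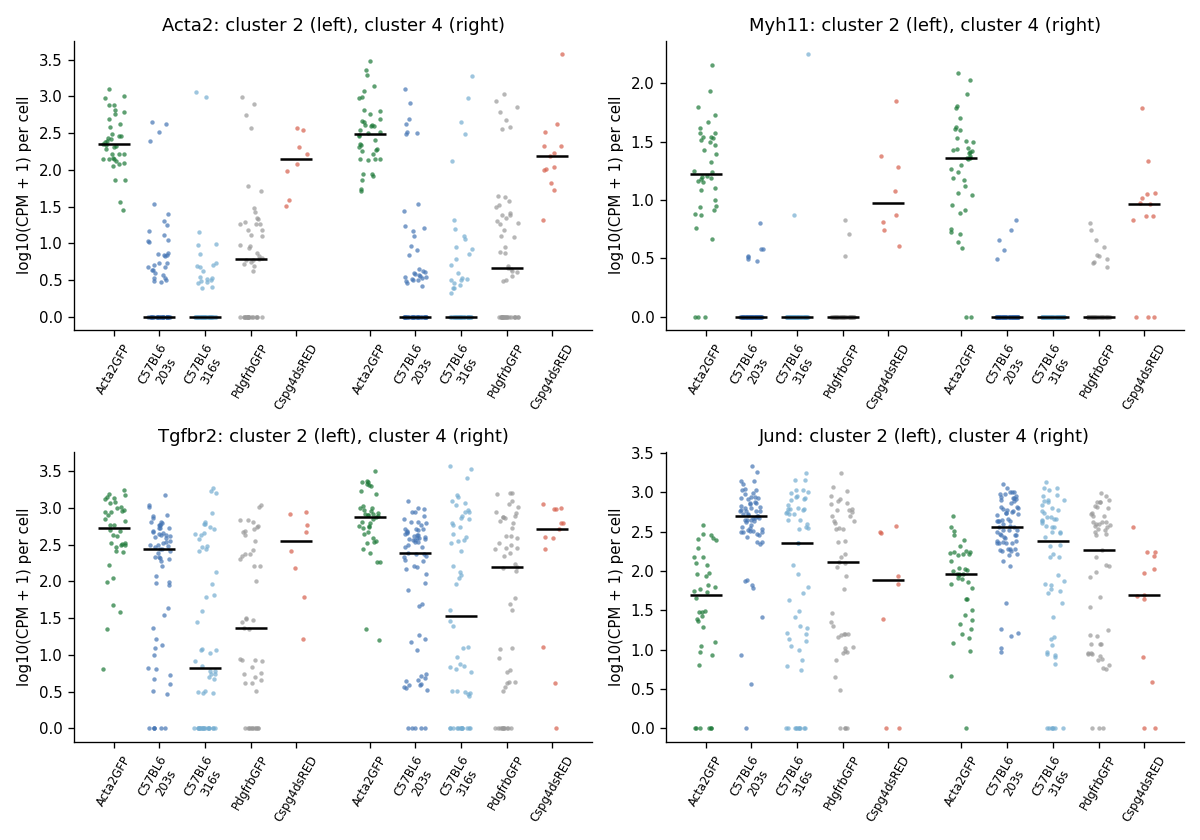
Levels of Acta2, Myh11, Tgfbr2 and Jund as log10(CPM + 1) in single fibroblasts, by plate, with cluster 2 on the left and cluster 4 on the right of each panel; each point is 1 cell and the bars are medians. All Acta2GFP cells lie above 0 for Acta2, while the median C57BL6 cell of plates heart_203s and heart_316s is at 0, and Jund has the opposite order with overlap.

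The antibody targets differed less. Pdgfra, the receptor by which fibroblasts are recognised, was at 593 CPM in Acta2GFP, 566 CPM in heart_203s and 598 CPM in heart_316s cells of cluster 2, and at 696, 458 and 441 CPM in cluster 4, with differences from -0.01 to 0.66. Pdgfrb, the receptor shared by fibroblasts and mural cells, was at 315.9, 236 and 107.6 CPM in cluster 2 and at 216, 165.5 and 96.3 CPM in cluster 4. Its differences were 0.42 and 0.38 against plate heart_203s and 1.55 and 1.16 against plate heart_316s, so Pdgfrb was not called. The 2 antibody-sorted plates were themselves apart for this gene: Pdgfrb counts were in 89.2% of heart_203s and 31.03% of heart_316s cells of cluster 2. Genes of the other reporter and of the exclusion step were mostly low. Cspg4, which encodes the pericyte proteoglycan NG2, had 0.850, 0.513 and 0 CPM in cluster 2 and 9.01, 1.86 and 0.0543 CPM in cluster 4, the last value being 1 count. Pecam1 had 3.16, 7.69 and 3.76 CPM in cluster 2, and in cluster 4 it was lower in Acta2GFP at 10.2 CPM against 93.2 and 76.1 CPM.

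The label of fibroblast was checked against marker genes. All 9 fibroblast markers (Pdgfra, Dcn, Lum, Col1a1, Col1a2, Tcf21, Dpt, Gsn and Mfap5) were measured on the Acta2GFP plate, none was called, and their median differences were -0.16 and -0.27 in cluster 2 and 0.02 and -0.08 in cluster 4. Of all genes compared, 2.43% were called higher and 1.98% lower in both clusters, so a count of 0 is near that background. The summed level of the 9 markers was 20006 CPM in Acta2GFP and 22485 to 26653 CPM in C57BL6 cells of cluster 2, and 21840 against 22058 and 24299 CPM in cluster 4. Acta2GFP cells of both clusters were therefore fibroblasts by these markers. Smooth muscle markers (Acta2, Tagln, Myh11 and Cnn1) summed to 313 CPM in Acta2GFP against 37.3 and 32.4 CPM in cluster 2, and to 532 against 69.7 and 94.8 CPM in cluster 4. Acta2, the gene of the sort, made up most of the Acta2GFP sums, at 254 and 394 CPM, so these sums are a description. The 5 pericyte markers summed to 107.1 CPM in Acta2GFP, 114.4 CPM in heart_203s and 3.26 CPM in heart_316s cells of cluster 2, and to 108.7, 137.4 and 17.1 CPM in cluster 4, so that plate heart_316s was the low one. Endothelial markers summed to 272, 142.6 and 137.6 CPM in cluster 2 and to 308, 198 and 218 CPM in cluster 4. Of 7 endothelial markers 3 were compared and 1 was called higher in both clusters, where 2.43% of all genes were. This was Tek, the angiopoietin receptor, at 262 against 126.1 and 124.7 CPM in cluster 2 and 286 against 97.7 and 96.2 CPM in cluster 4. Immune markers summed to 8.01, 17.99 and 59.8 CPM in cluster 2 and to 3.13, 24.8 and 40.7 CPM in cluster 4, and 3 of the 5 were at 0 in Acta2GFP cells. Cardiomyocyte markers summed to 89.2, 127.2 and 168.3 CPM in cluster 2 and to 112.6, 90.8 and 116.3 CPM in cluster 4. Schwann cell markers and red blood cell genes were below the level needed for comparison.

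Over all genes compared, 276 were higher in Acta2GFP in both clusters and 225 were lower, which is 2.43% and 1.98% of genes. Within cluster 2 alone, 1267 genes (11.2%) were called higher and 1085 (9.57%) lower, and within cluster 4 alone 1009 (8.9%) and 1052 (9.28%). How far the 2 plates of 1 strain differed is given as a scale for these counts. The labels do not give the antibody used for each C57BL6 plate, so sort and plate are not separated in this scale. Against plate heart_203s alone, 36.8% of genes differed by 1 or more in cluster 2 and 33.1% in cluster 4, and against plate heart_316s alone 44% and 39.2%. Between the 2 C57BL6 plates the same rule was met by 36.7% of genes in cluster 2 and 30.5% in cluster 4. Acta2GFP thus differed from plate heart_203s in about as many genes as plate heart_316s did. Pearson correlations across genes of log2(CPM + 1) gave the same picture as a description: 0.775 for Acta2GFP with heart_203s, 0.701 with heart_316s and 0.769 between the C57BL6 plates in cluster 2, and 0.798, 0.737 and 0.795 in cluster 4.

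A gene low in 1 group could pass the limit of 5 CPM through the other group, and then had to differ, so the counts of calls are descriptions. Of the called genes, 65.6% of the higher and 28.4% of the lower ones had counts in at least 30% of the cells of the higher side in both clusters. Leaving out of each sum the cell with the most counts of a gene gave 180 higher and 246 lower calls, so the share of higher calls fell from 55.1% to 42.3%. The same step moved the median difference of all genes to -0.23 and 0.23 in cluster 2 and -0.25 and 0.10 in cluster 4, where it had been 0.00, 0.09, -0.03 and 0.03. That step also cut the genes compared from 11336 to 9701.

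The contractile genes are those that smooth muscle uses to shorten. Of 16 smooth muscle contractile genes compared, 5 were called higher in both clusters (Acta2, Myh11, Tagln, Mylk and Synpo2), where 2.43% of all genes were, and none lower. Acta2 is the gene of the sort, and Myh11 and Mylk averaged under 5 CPM on the C57BL6 plates and were compared because of their Acta2GFP level, so the count is a description and supports nothing. The median differences were 0.71 and 1.41 in cluster 2 and 0.51 and 0.97 in cluster 4. Myh11, the smooth muscle myosin heavy chain, had 18.8 CPM in Acta2GFP, 0.342 in heart_203s and 4.89 in heart_316s cells of cluster 2, and 21.7, 0.298 and 0 CPM in cluster 4. Its counts were in 92.1% of Acta2GFP cells of cluster 2 and in 38 of 40 cells of cluster 4, against at most 10.8% on the C57BL6 plates. Tagln, which encodes the actin-binding protein transgelin, had 33.7, 9.53 and 0.0627 CPM in cluster 2 and 109.2, 7.70 and 33.5 CPM in cluster 4. Mylk, the myosin light chain kinase that starts contraction, had 17.7, 5.30 and 1.504 CPM in cluster 2 and 15.5, 2.16 and 0.923 CPM in cluster 4. Synpo2, an actin-bundling protein of smooth muscle, had 39.2, 15.4 and 10.97 CPM in cluster 2 and 35.8, 15.1 and 3.31 CPM in cluster 4. The median Acta2GFP cell had 3.66 and 4.67 CPM of Synpo2 in clusters 2 and 4, and 36.1 CPM of Tagln in cluster 4. Those Acta2GFP sums therefore lay well above the typical cell. Apart from Acta2 these genes were thus found at low levels in most Acta2GFP cells, whereas the C57BL6 sums came from a minority of cells. The few Cspg4dsRED cells were alike in this, with 15.99 and 11.1 CPM of Myh11 in clusters 2 and 4, 68.1 and 121.5 CPM of Tagln, 6.40 and 9.02 CPM of Mylk and 121.8 and 1.68 CPM of Synpo2, and Myh11 counts in 8 of 8 and 10 of 13 cells. The summed contractile list was at 2188 and 2797 CPM in Cspg4dsRED and 2157 and 2576 CPM in Acta2GFP cells, so its level was not particular to the Acta2GFP plate.

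Mural cells of the same plate give a scale for these levels. Clusters 6 to 8, taken as mural because of their contractile and pericyte markers, held 51 cells on the Acta2GFP plate. Acta2 was at 4029 CPM in them, and the fibroblasts had 6.29% of this level in cluster 2 and 9.77% in cluster 4. For Myh11, at 2492 CPM in mural cells, the fibroblasts had 0.755% and 0.870%. A share near 1% was also found for Mylk (0.802% and 0.703%) and, among genes picked after their values were seen, for Cnn1 (0.842% and 0.937%), Actg2 (0.958% and 0.737%), Lmod1 (0.815% and 0.622%) and Sncg (0.949% and 0.783%). Other contractile genes stood at larger shares, among them Tagln (1.92% and 6.22%), Myl9 (5.92% and 6.24%), Tpm2 (5.25% and 8.49%) and Synpo2 (8.10% and 7.40%), and the list as a whole ran from 0.370% to 31.2% in cluster 2 and from 0.502% to 21.8% in cluster 4. The 5 pericyte markers were spread likewise, with Rgs5 at 0.632% and 1.06%, Higd1b at 3.65% and 0.751%, Vtn at 3.21% and 1.19%, Abcc9 at 8.27% and 20.96% and Kcnj8 at 13.1% and 7.40%. By sums, the share of the mural level thus differed widely between genes, and that of Acta2 lay within the range of its list. The mural sum pools 3 clusters (3, 33 and 15 cells of clusters 6, 7 and 8), and for genes of a part of these cells it differs from the typical cell: Kcnj8 was at 249.6 CPM in the sum and 8.26 CPM in the median mural cell, and Casq2 at 623 and 57.4 CPM. With the median cell in place of the sum, Acta2 was at 4.38% and 6.10% of the mural level, Tagln at 1.72% and 1.86% and Myh11 at 0.587% and 0.822%. Some genes with larger shares by sum came near 1%, with Synpo2 at 1.08% and 1.38% and Des at 0.779% and 0.757%. Others did not, with Myl9 at 3.97% and 3.71% and Cald1 at 22.8% and 23.4%. Actg2 rose to 10.9% and 7.84%. By sums, Acta2 on 3 other plates was at 7.49% and 9.86% (PdgfrbGFP), 3.19% and 7.32% (heart_203s) and 2.74% and 6.82% (Cspg4dsRED) of the level in their own mural cells, which was 1086, 841 and 5373 CPM. The mix of clusters among mural cells differed, with 33 of 37 in cluster 8 on plate heart_203s against 15 of 51 on the Acta2GFP plate, so these shares are not compared between plates.

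**Figure D2:**
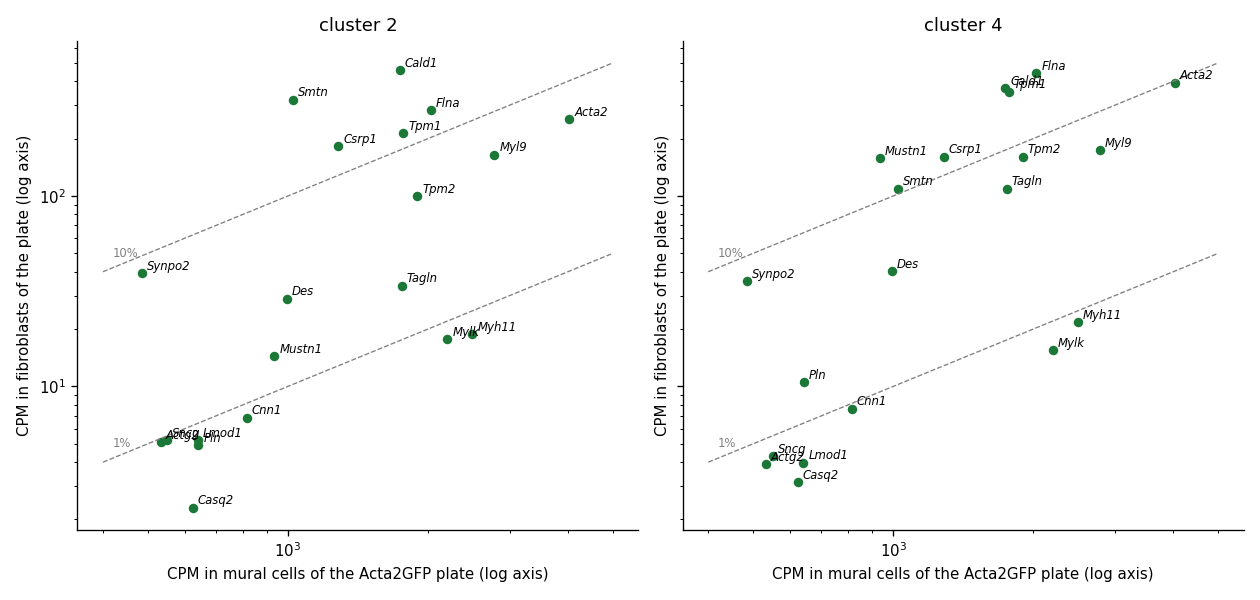
CPM of contractile genes in fibroblasts of the Acta2GFP plate (vertical, log axis) against the 51 mural cells of the same plate (horizontal, log axis), for cluster 2 and cluster 4; each point is 1 gene, and the dashed lines mark 1% and 10% of the mural level. Acta2 lies at 6.29% and 9.77%, within the spread of the list, and Myh11, Mylk, Cnn1, Actg2, Lmod1 and Sncg lie near the 1% line.

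The position of wells was also examined. For each of the 78 fibroblast wells, the counts of all mural wells that shared its row or its column were summed and set against the fibroblast's own counts. Over the fibroblast wells, Pearson's r of log2 values was 0.49 for Acta2, 0.37 for Tagln, 0.57 for Myh11, 0.69 for Mylk and 0.71 for Rgs5. Spearman's rho was 0.45, 0.58, 0.67, 0.73 and 0.82 in the same order. These wells share 1 plate, so the values are given as a description. Raw counts were used and no gene from outside the mural cells was set beside them, so depth and gradients over the plate are not separated from position. The relation's part in the contractile genes of the fibroblasts was not tested. In the other direction, Pdgfra counts were in 100% of the 15 cluster 8 cells of the Acta2GFP plate, at 30.02 CPM, against 66.7% of the 33 such cells of plate heart_203s at 7.59 CPM.

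Other lists tied to contraction are given beside the shares of all genes called, 2.43% higher and 1.98% lower. Of 13 myofibroblast genes compared, none was called, although their medians were 1.14, 0.74, 0.98 and 0.34 (heart_203s and heart_316s in cluster 2, then in cluster 4). Of 14 actin cytoskeleton genes and serum response factor targets, 1 was called higher: Vcl, which encodes the adhesion protein vinculin, at 149.9, 62.01 and 62.5 CPM in cluster 2 and 119.1, 55.6 and 55.5 CPM in cluster 4. The list's medians were -0.04, -0.10, 0.11 and 0.11. None of 11 pericyte genes was called, with medians of 0.16, 3.26, -0.24 and 1.56, which again set plate heart_316s apart. Of 4 genes beside Acta2 on the chromosome that were compared, none was called in both clusters. Stambpl1, directly beside it, was called higher in cluster 2 at 162.3, 13.6 and 44.1 CPM, and missed the rule in cluster 4 at 48.9, 33.1 and 12.4 CPM, with differences of 0.55 and 1.89.

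Matrix genes are the main products of fibroblasts. With 2.43% and 1.98% of all genes called higher and lower, lists of this size would hold fewer than 1 call each, so a count of 0 is near the background. No call was made among 16 collagens (medians 0.14, 0.16, 0.28 and 0.40), 22 other matrix genes (0.15, -0.09, 0.20 and 0.13), 16 matrix proteases and inhibitors (-0.34, -0.22, -0.08 and -0.09) or 11 adventitial and progenitor surface markers (0.12, -0.15, 0.31 and 0.22). Summed collagens were at 14192 CPM in Acta2GFP against 12592 and 12959 CPM in cluster 2, and at 12657 against 10090 and 10507 CPM in cluster 4. With a single Acta2GFP plate, these values do not show that matrix expression was the same.

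TGF-beta drives matrix synthesis and contractile genes in fibroblasts. Of 17 TGF-beta and BMP pathway genes, 2 were called higher, where 2.43% of all genes were, and none lower, with medians of 0.05, 0.23, 0.08 and 0.37. Tgfbr2, the receptor that binds the ligand, was at 723 CPM in Acta2GFP, 325 in heart_203s and 207 in heart_316s cells of cluster 2, and at 861, 304 and 327 CPM in cluster 4. Smad3, which carries the signal to the nucleus, was at 214, 35.002 and 24.3 CPM in cluster 2 and at 160, 58.3 and 26.9 CPM in cluster 4. Both were above the C57BL6 plates in each cluster, by 1.15 to 1.80 for Tgfbr2 and by 1.44 to 3.09 for Smad3. The other 15 genes of the list did not meet the rule. None of 10 Wnt pathway genes was called (medians 0.46, -0.16, -0.40 and -0.10).

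**Figure D3:**
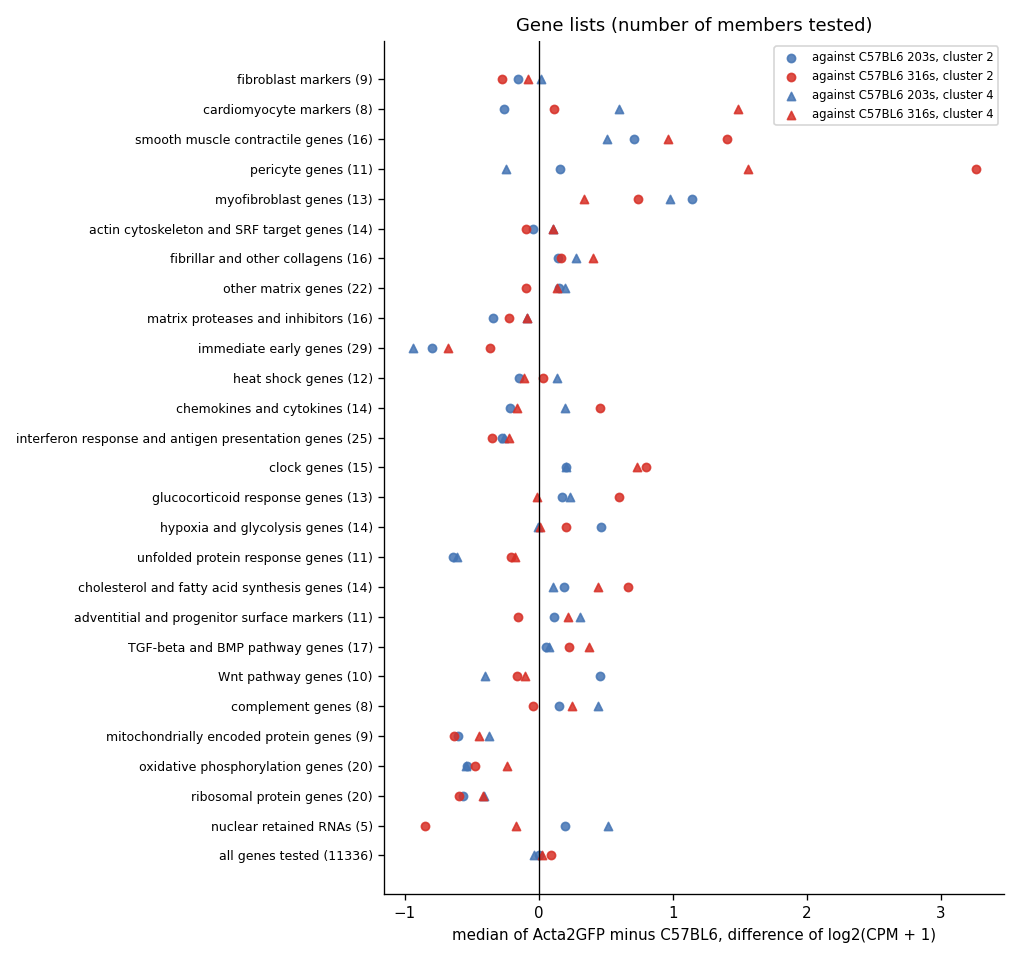
Median difference of log2(CPM + 1), Acta2GFP minus each C57BL6 plate, for each gene list with at least 5 genes compared; colour gives the C57BL6 plate and shape the cluster. Contractile genes lie above 0 in all 4 comparisons, from 0.51 to 1.41, and immediate early and ribosomal protein genes below it.

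Immediate early genes are induced within minutes of handling or growth factor stimulation. Of 29 compared, 3 were called lower in both clusters (Jund, Klf2 and Ier5), where 1.98% of all genes were, and none was called higher, with medians of -0.79, -0.36, -0.94 and -0.68. Jund, a subunit of the AP-1 transcription factor, was at 105.6 CPM in Acta2GFP, 549 in heart_203s and 480 in heart_316s cells of cluster 2, and at 87.7, 453 and 417 CPM in cluster 4. Its median cell was at 48.5, 502 and 228 CPM in cluster 2 and 91.01, 367 and 244 CPM in cluster 4, with cells at 0 on both sides and the highest Acta2GFP cell at 506 CPM. Single cells therefore overlapped, while the sums were about as far apart against either plate. Klf2, a transcription factor responsive to flow and statins, was at 79.7, 335 and 319 CPM in cluster 2 and at 131.5, 384 and 340 CPM in cluster 4. Ier5, an immediate early regulator of heat shock factor, was at 14.5, 101.2 and 115.5 CPM in cluster 2 and at 9.14, 43.4 and 23.8 CPM in cluster 4. The list as a whole summed to 15640 CPM against 26210 and 21093 CPM in cluster 2 and 13517 against 22164 and 18409 CPM in cluster 4. Cspg4dsRED cells were lower still for the list, at 9591 and 13125 CPM, and had Jund at 159.4 and 94.6 CPM, while PdgfrbGFP cells had 21828 and 20263 CPM for the list. Elastase, which the study's methods give for Acta2GFP hearts, cannot be told apart from strain, sort and plate.

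The 12 genes lower by the widest margin were taken among those found in at least 30% of C57BL6 cells. Spry2, a feedback inhibitor of receptor tyrosine kinase and ERK signals, was at 43.9 CPM in Acta2GFP, 371 in heart_203s and 259 in heart_316s cells of cluster 2, and at 27.6, 213 and 185 CPM in cluster 4. PdgfrbGFP cells had 140.99 and 85.6 CPM, and Cspg4dsRED cells 16.97 and 26.9 CPM. Spry2 counts were in 97.4% of Acta2GFP and 96.9% of heart_203s cells of cluster 2, and in 65.8% and 93.8% after thinning. Gm11175 lies on the opposite strand inside Jund (chr8:70698949-70700616), and because the sources used here do not say that counting used strand, its differences of -2.59, -2.35, -2.81 and -2.73 cannot be told apart from those of Jund. Bhlhe41, a repressor in the circadian clock, was at 17.8, 122.9 and 60.6 CPM in cluster 2 and 22.1, 189 and 128.96 CPM in cluster 4, with counts in all cells of these plates. Kdm6b, which removes the repressive mark on lysine 27 of histone H3, was at 25.2, 82.3 and 130.8 CPM in cluster 2 and 14.4, 95.6 and 76.6 CPM in cluster 4.

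Set, a histone chaperone and phosphatase inhibitor with near-identical copies in the genome, was at 22.9, 113.2 and 100.9 CPM in cluster 2 and 29.6, 145.5 and 95.9 CPM in cluster 4. Lrrc8a, the subunit of the volume-regulated anion channel, was at 98.2, 315.9 and 326 CPM in cluster 2 and 43.1, 289 and 199 CPM in cluster 4. Zfp691, Mpnd and Pnkd had differences from -3.05 to -1.66, but Zfp691 and Mpnd came within 1 of the C57BL6 plates when cells were averaged or thinned, and Pnkd when they were averaged. Their lower level thus depended on how cells were combined.

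Long non-coding RNAs were also among the lower genes. 2010015M23Rik (chr11:88039578-88047360, minus strand) was at 0.850 CPM in Acta2GFP, 27.8 in heart_203s and 26.5 in heart_316s cells of cluster 2, and at 0.653, 23.2 and 20.3 CPM in cluster 4. It had counts in 28.9% of Acta2GFP cells of cluster 2, in 100% of heart_203s cells and in 91.4% of heart_316s cells. PdgfrbGFP cells resembled C57BL6 cells at 24.9 and 19.8 CPM, whereas Cspg4dsRED cells were at 0.984 and 1.26 CPM. On the Acta2GFP plate it was low in the other clusters too, at 0.755 CPM in cluster 1, 5.13 in cluster 3 and 0.299 in cluster 8, against 30.8, 29.3 and 57.5 CPM on plate heart_203s. Gm26785, on chr17:46273479-46280060, had the same order at 0.971, 21.9 and 12.4 CPM in cluster 2 and 0.848, 18.2 and 7.16 CPM in cluster 4, with 18.6 and 13.9 CPM in PdgfrbGFP and 1.72 and 0.839 CPM in Cspg4dsRED cells. In clusters 2 and 4 both RNAs were thus low on the Acta2GFP and Cspg4dsRED plates and higher on the other three.

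The 12 genes higher by the widest margin had, by rule, counts in at least 30% of Acta2GFP cells of each cluster. Zfp521 (chromosome 18), a zinc finger regulator of mesenchymal and blood progenitors, was at 149.005 CPM in Acta2GFP, 35.7 in heart_203s and 14.04 in heart_316s cells of cluster 2, and at 258, 39.3 and 54.8 CPM in cluster 4. Its counts were in 81.6% of Acta2GFP cells of cluster 2, against 8.62% to 36.2% on the C57BL6 plates. Mmp16, a membrane-bound matrix metalloproteinase, was at 111.4, 16.1 and 15.7 CPM in cluster 2 and at 72.8, 16.4 and 0.0543 CPM in cluster 4. Enpep, aminopeptidase A, which trims angiotensin II, was at 52.9, 9.70 and 1.76 CPM in cluster 2 and at 80.2, 2.38 and 8.41 CPM in cluster 4, while PdgfrbGFP cells had 76.1 and 3.34 CPM and Cspg4dsRED cells 40.6 and 0 CPM. Chad, a leucine-rich matrix protein first described in cartilage, was at 14.02, 1.58 and 0 CPM in cluster 2 and 16.8, 1.15 and 0 CPM in cluster 4. Chad counts were in 60.5% and 82.5% of Acta2GFP cells, while plate heart_316s had none. Stom, the membrane protein stomatin, was at 38.5, 0.385 and 1.25 CPM in cluster 2 and 34.1, 7.70 and 0 CPM in cluster 4.

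Ppm1f, a phosphatase that acts on PAK and calmodulin-dependent kinases, had 89.5, 3.76 and 2.95 CPM in cluster 2 and 15.01, 0.446 and 0 CPM in cluster 4. PdgfrbGFP cells had 4.37 and 18.2 CPM, and Cspg4dsRED cells 0 and 96.1 CPM, so in cluster 4 both were above Acta2GFP cells. Tubgcp3, a subunit of the gamma-tubulin complex that nucleates microtubules, had 100.02, 16.4 and 25.5 CPM in cluster 2 and 71.98, 12.4 and 16.6 CPM in cluster 4. Slc20a1, a phosphate carrier, had 33.3, 5.34 and 1.504 CPM in cluster 2 and 40.003, 9.41 and 5.32 CPM in cluster 4. Tcaf2, Sytl2 and Cox15 completed the list, with smallest differences of 2.28, 1.96 and 1.93. The smallest difference of Tcaf2 was 1.29 with cells averaged and 1.21 after thinning, and that of Stom fell from 2.01 to 1.03 with its top cell left out. For Zfp521 it fell from 2.03 to 1.39 with cells averaged and 1.38 after thinning. For Mmp16 it fell from 2.08 to 1.47 and 1.44 in the same way. Sytl2 rested on single cells: with its top cell left out of each sum the smallest difference was 0.25. Genes on the opposite strand overlap Chad, Enpep, Mmp16, Slc20a1, Tubgcp3 and Cox15, and reads of such partners cannot be told apart. The same holds among the lower genes for Gm26785, Mpnd, Bhlhe41, Lrrc8a, Kdm6b and Pnkd. Other genes named above are also overlapped in this way, among them Tagln, Mylk, Synpo2, Vcl, Pdgfra, Dpt, Lmod1 and Abcc9. Genes on the same strand overlap 2010015M23Rik, Lrrc8a, Pnkd and Synpo2, and others such as Pdgfra, Col1a2, Gsn and Casq2. Reads in such overlaps cannot be assigned with certainty.

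**Figure D4:**
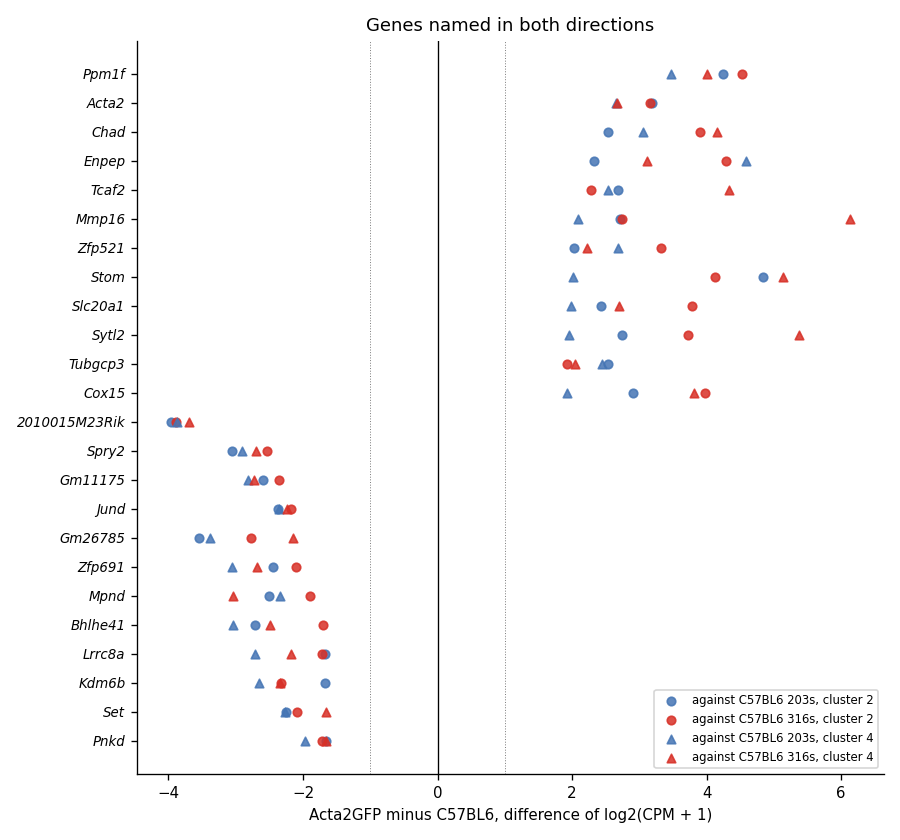
Difference of log2(CPM + 1), Acta2GFP minus plate heart_203s and minus plate heart_316s, in cluster 2 and cluster 4 for the 12 genes higher and the 12 genes lower by the widest margin. By the rule every point lies at least 1 from 0, and those of Acta2 lie between 2.66 and 3.20.

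Signalling and stress lists are likewise read against 2.43% of all genes called higher and 1.98% lower. Of 14 chemokines and cytokines, 2 were called higher (Il6 and Lif) and none lower. This count is a description, since Lif may have passed the limit of 5 CPM through its Acta2GFP level. Il6, an inflammatory cytokine that fibroblasts release, was at 126.97, 30.3 and 55.2 CPM in cluster 2 and 52.5, 9.63 and 16.4 CPM in cluster 4, while Lif, a cytokine of the same family, had counts in only 15.8% and 20.0% of Acta2GFP cells. Slc2a1, a glucose transporter, was the 1 higher call of 14 hypoxia and glycolysis genes, at 28.2, 11.5 and 0.376 CPM in cluster 2 and 42.8, 20.3 and 19.2 CPM in cluster 4. Mcm2, a replication helicase subunit, was the higher call of the 2 cell cycle genes compared, at 25.2, 2.44 and 1.25 CPM in cluster 2 and 14.7, 3.27 and 0.597 CPM in cluster 4. It was below 5 CPM on both C57BL6 plates and was compared because of its Acta2GFP level, so that call is a description. Of 15 clock genes, Bhlhe41 was the single call. No gene was called among 12 heat shock, 25 interferon response and antigen presentation, 13 glucocorticoid response, 11 unfolded protein response, 14 cholesterol and fatty acid synthesis and 8 complement genes, nor among 5 nuclear retained RNAs.

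Ribosomal and mitochondrial transcripts are read by their medians, since lists of this size would hold fewer than 1 call each at 2.43% and 1.98% of all genes. The 20 ribosomal protein genes had medians of -0.57, -0.59, -0.40 and -0.42, the 20 oxidative phosphorylation genes -0.54, -0.47, -0.54 and -0.23, and the 9 mitochondrially encoded genes -0.60, -0.63, -0.37 and -0.45, with no gene called in any of the 3 lists. The medians of all genes lay between -0.03 and 0.09. Summed ribosomal protein genes were at 6771 and 7577 CPM in Acta2GFP cells (cluster 2, then cluster 4) and at 7034 and 7838 CPM in Cspg4dsRED cells, against 9772 to 9983 CPM on the C57BL6 plates.

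Acta2GFP fibroblasts had more genes with a count. The median cell had 6567 genes in cluster 2, against 4521 on plate heart_203s and 3569 on plate heart_316s, and 6488 against 4665 and 3422 in cluster 4. Thinned to 50000 counts a cell, the medians were 3955, 3035 and 2247 in cluster 2 and 4308, 3164 and 2280 in cluster 4. The order of plates was thus the same at equal depth. When only genes with at least 5 counts in the thinned cell were counted, a measure added after the data were seen, the medians were 2361, 2122 and 1291 in cluster 2 and 2449, 2312 and 1382 in cluster 4. Most of the excess over plate heart_203s was therefore in genes with fewer than 5 counts. Cspg4dsRED cells had 3773 and 3754 genes after thinning, and PdgfrbGFP cells 2190 and 2447. With at least 5 counts, Cspg4dsRED cells had 2454 and 2452 genes, slightly above Acta2GFP cells, and PdgfrbGFP cells 1358 and 1665.

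**Figure D5:**
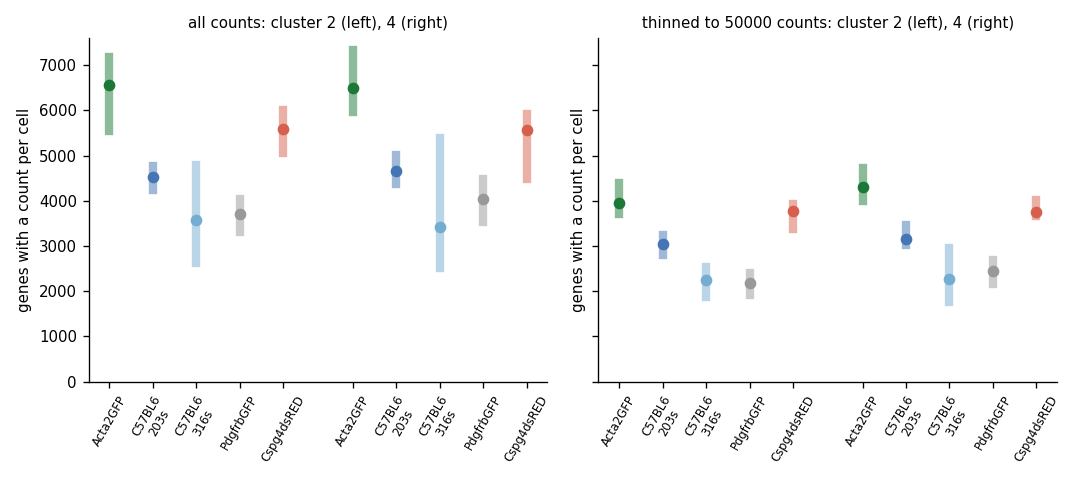
Genes with a count per cell from all counts (left) and after thinning to 50000 counts (right), by plate and cluster; points are medians and bars span the quartiles over cells. After thinning, Acta2GFP cells have medians of 3955 and 4308 genes, above 3035 and 3164 on plate heart_203s and 2247 and 2280 on plate heart_316s.

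Spike-in RNA, added at a fixed amount, took a smaller share on the Acta2GFP plate. Its median share was 0.885% in cluster 2 against 1.65% on plate heart_203s and 2.02% on plate heart_316s, and 0.941% against 1.49% and 1.95% in cluster 4. Mitochondrial counts had median shares of 1.33%, 1.46% and 1.73% in cluster 2 and 1.45%, 1.38% and 1.66% in cluster 4. The called genes also differed in make-up. Genes called higher had a median transcript length of 4196 bases, those called lower 2973 and all compared genes 3329, with GC contents of 49.8%, 50.5% and 49.7%. The median higher gene had counts in 46.3% of Acta2GFP and 11.5% of C57BL6 cells, the median lower gene in 24.5% of either, and the median of all compared genes in 48.8% and 25.4%. Detection, spike-in share and transcript length therefore moved with the comparison, and their part in the called genes was not tested.

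The remaining clusters of the Acta2GFP plate show whether the differences stopped at clusters 2 and 4. In cluster 1 (26 cells, against 16 of plate heart_203s), 58.3% of the 276 higher genes and 40.9% of the 225 lower genes differed by 1 or more in the same direction, where 31.1% and 19.2% of all genes did. In cluster 3 (14 cells, against both C57BL6 plates) it was 28.3% and 39.6%, where 13.4% and 20.9% of all genes did. In the mural cluster 8 (15 cells, against 33 of plate heart_203s) it was 44.6% and 52.4%, beside 27.2% and 30.2%. Part of the called genes thus differed on this plate in every cluster read, mural cells included. Jund was at 94.3, 94.7 and 52.7 CPM in clusters 1, 3 and 8 of the Acta2GFP plate, against 377, 491 and 177.9 CPM on plate heart_203s, and Spry2 at 37.3, 83.2 and 23.2 CPM against 317, 263 and 674 CPM. Acta2 was higher in each of them as well, at 753, 1021 and 2340 CPM against 210, 74.7 and 136.1 CPM.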

How the data were processed

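The authors made Smart-seq2 libraries from single sorted cells in 384-well plates, and the deposited table holds raw read counts per Ensembl gene and cell, not normalized. Per the labels and the study's methods, reads were demultiplexed with bcl2fastq, trimmed, aligned to GRCm38 (mm10) by TopHat with Bowtie or Bowtie2, and counted per gene with featureCounts. The annotation release and strand setting are not given in the sources used here. The authors kept cells with Pdgfra or Pdgfrb and removed endothelial and immune cells, and the cluster labels came from pagoda2 on the same values, so differences between clusters were not examined. Per the study's methods, doublets were limited by sort gates, by a samtools step and by removing cells with very many expressed genes; none were called here.

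The table held 46517 genes and 92 spike-ins, of which 46005 genes matched a name in the reference annotation. Every cell column was matched to a sample, and cells outside the plates and clusters named entered no result. Counts were summed per plate and cluster, scaled to CPM of endogenous counts and compared as differences of log2(CPM + 1), with Python 3.11.15, numpy 2.4.6, pandas 2.3.3 and scipy 1.17.1. Genes with a mean of at least 5 CPM were compared. Labels name no animal, so each plate is 1 sample, Acta2GFP has a single plate, and no test or p-value is given. Intervals are exact (95%) and cover counting error only, since PCR copies of 1 molecule cannot be recognised. Thinning drew 50000 counts from each cell with a fixed seed. Scaling alternatives used edgeR 4.0.16 and DESeq2 1.42.0 in R 4.3.3 for factors only. Scripts were tested on simulated data.

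Genes named are the 12 higher and 12 lower ones with the largest smallest difference over the 4 contrasts and counts in at least 30% of cells of the higher side, the sort targets, and up to 4 called members of each of 35 lists. Synpo2, Cnn1, Actg2, Lmod1, Sncg, Stambpl1, the other genes set against mural cells and the pericyte markers were added after their values were seen. Members and lists were chosen with earlier results of these data known.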

Additional observations from a re-analysis of the deposited data

Results flagged for a closer look

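In all, 1.49% of the genes compared differed by 1 or more against both C57BL6 plates in opposite directions in cluster 2 and cluster 4, and 5 of them had counts in at least 30% of cells of the higher side. The difference between clusters was not tested, and each value is log2(CPM + 1) of Acta2GFP minus a C57BL6 plate. Mecom, a transcription factor of stem and endothelial cells, was lower in cluster 2 (-1.26 against plate heart_203s and -2.39 against plate heart_316s) and higher in cluster 4 (1.45 and 1.70). Nfkb1, a subunit of the inflammatory regulator NF-kappaB, followed the same order, at -1.41 and -1.90 in cluster 2 and 1.12 and 1.02 in cluster 4. Cttnbp2nl, which binds cortactin, went the other way, at 1.67 and 2.54 in cluster 2 and -1.34 and -1.45 in cluster 4. Ufsp2, a protease of the UFM1 pathway, was at 1.21 and 1.43 in cluster 2 and -1.23 and -1.66 in cluster 4. 1700030K09Rik was at 1.19 and 1.98 in cluster 2 and -1.21 and -1.28 in cluster 4.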

How the results depend on the processing

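No paired analysis was possible because no result comes from a test and replicate numbers only count cells. Calls are given as the percent of genes compared, higher then lower, beside 2.43% and 1.98% in both clusters, 11.2% and 9.57% in cluster 2 and 8.90% and 9.28% in cluster 4. With no filter on low genes, the shares were 1.55% and 0.977% in both clusters (387 and 244 genes), 7.92% and 5.20% in cluster 2 (1976 and 1298 genes) and 6.89% and 5.05% in cluster 4 (1721 and 1260 genes). With a mean of at least 20 CPM, the shares were 1.91% and 1.53% in both clusters (150 and 120 genes), 8.69% and 7.46% in cluster 2, and 6.57% and 7.03% in cluster 4. A pseudocount of 5 gave 1.08% lower in both clusters and 6.08% lower in cluster 4, and the mean of the CPM of cells gave 1.15% lower in both clusters (130 genes). With the top cell of each gene left out, 1.86% were higher in both clusters (180 genes) and 6.59% in cluster 4. A difference of 2 left 0.265% and 0.176% in both clusters (30 and 20 genes), 2.81% and 3.05% in cluster 2, and 1.98% and 2.39% in cluster 4. Without plate heart_203s or without plate heart_316s, 6.20% to 8.89% were higher and 5.36% to 5.46% lower in both clusters (704 to 1005 and 609 to 617 genes), 19.5% to 26.1% and 17.3% to 18.03% in cluster 2, and 16.6% to 21.3% and 16.7% to 17.7% in cluster 4, since 1 comparison has to be met in place of 2. Pooling the C57BL6 plates gave 5.49% and 4.79% in both clusters (623 and 543 genes), 17.999% and 17.1% in cluster 2, and 14.8% and 15.7% in cluster 4. When PdgfrbGFP also had to differ, 1.29% and 0.679% were left in both clusters, 5.14% lower in cluster 2, and 5.86% higher and 5.23% lower in cluster 4. TMM factors gave 268 and 232 genes and median-of-ratios factors 275 and 223, beside 276 and 225. Of 280 values of 28 named and sort genes under the alternatives, 222 moved by no more than the SD of the 4 differences, 56 moved further and 2, of genes with 1 direction in all 4 differences, changed sign: thinning made the difference nearest to 0 -0.0818 for Cspg4 and 0.133 for Pecam1. Pdgfra, whose 4 differences had both signs, had its value nearest to 0 at -0.0106 and between -0.0869 and 0.0885 under the alternatives. Detected genes per cell stayed highest on the Acta2GFP plate, then plate heart_203s, then plate heart_316s at each depth tried. Causes of the other changes were not tested.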
